A study of Mus musculus with 12 samples.

Results

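The 6 genes examined in mouse dorsal root ganglia, where the cell bodies of body sensory neurons lie, were Th, Slc17a8, Fam19a4 and Zfp521, which mark or are studied in C-fibre touch neurons, and Slc17a7 and Slc17a6, which complete the family of vesicular glutamate transporters. They were chosen by name and make up 6 of 35583 genes with transcripts in the deposited tables, and all 6 passed the filter on low counts. The tested mice were YAC Q84 animals (5 female libraries and 1 male library), which carry a yeast artificial chromosome holding the human ATXN3 gene with an expanded CAG repeat, the cause of spinocerebellar ataxia type 3. Their references were wild-type (WT) mice (3 female and 3 male libraries), and both genotypes were 24 weeks old. The labels give neither the zygosity of the transgene, nor the spinal levels of the ganglia, nor whether each library came from a separate animal. The p-values therefore measure the spread between libraries, which may be technical, and with 1 Q84 male the Q84 group is nearly all female.

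C-fibre low-threshold mechanoreceptors are unmyelinated neurons of hairy skin that respond to gentle touch, and in mice they are recognised by tyrosine hydroxylase, by the vesicular glutamate transporter VGLUT3 and by the secreted protein TAFA4. Vesicular glutamate transporters load glutamate into synaptic vesicles, so they define a neuron as glutamatergic. In mouse ganglia VGLUT2 is the transporter of most small-diameter neurons, VGLUT1 is found mainly in large-diameter ones and VGLUT3 in the C-fibre touch neurons. ZFP521 is a zinc-finger transcriptional regulator that acts with EBF factors.

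The genotype labels were checked with the Atxn3 transcript of 1000 bases, which can take up reads of the human transgene. It was at 62.7 to 79.4 TPM (a transcript level scaled to length and library) in 5 libraries labelled Q84 and at 0 to 0.285 TPM in 5 labelled WT. It was at 0.0612 TPM in the library labelled Q84 female 5 and at 34.0 TPM in that labelled WT female 2, so both go against their labels. No library was moved to another group, and each comparison is given over all 12 libraries and over the 10 left without these 2. The 2 were set aside for their Atxn3 level, in a choice made with earlier results of these data known. Total estimated counts ran from 66490481 to 86891563 per library. The lowest value of any of the 6 genes was 517 counts, for which counting error alone is 4.40%.

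The 300 bases around the annotated start of 3 of the genes, 250 before it and 50 after, are shown because Th, Slc17a8 and Fam19a4 varied together over the libraries. They are RefSeq sequences of GRCm38.p6, each on the minus strand and written 5′ to 3′, and capitals mark a match to the cyclic AMP response element. Th lies at chr7:142899946-142900245, Slc17a8 at chr10:89621200-89621499 and Fam19a4, listed there as Tafa4, at chr6:97060362-97060661.
Th: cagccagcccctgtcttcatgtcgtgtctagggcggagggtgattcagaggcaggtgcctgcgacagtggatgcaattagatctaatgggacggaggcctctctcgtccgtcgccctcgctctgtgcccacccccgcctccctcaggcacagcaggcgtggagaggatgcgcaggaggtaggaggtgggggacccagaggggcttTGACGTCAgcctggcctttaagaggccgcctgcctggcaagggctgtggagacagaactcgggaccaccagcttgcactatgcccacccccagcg
Slc17a8: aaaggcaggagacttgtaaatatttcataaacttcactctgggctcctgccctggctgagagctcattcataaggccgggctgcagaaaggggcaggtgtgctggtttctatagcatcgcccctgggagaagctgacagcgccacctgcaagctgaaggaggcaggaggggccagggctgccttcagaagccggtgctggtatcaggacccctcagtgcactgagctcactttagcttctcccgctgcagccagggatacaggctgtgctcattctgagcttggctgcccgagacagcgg
Fam19a4: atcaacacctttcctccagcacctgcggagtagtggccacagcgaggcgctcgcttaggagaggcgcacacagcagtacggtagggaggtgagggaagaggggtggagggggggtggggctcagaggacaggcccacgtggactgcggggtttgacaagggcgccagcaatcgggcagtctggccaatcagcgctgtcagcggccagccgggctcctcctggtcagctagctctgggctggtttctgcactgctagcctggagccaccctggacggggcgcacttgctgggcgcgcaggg
The 3 motifs searched on both strands were the cyclic AMP response element TGACGTCA, the RUNX core TGTGGT and the TATA box TATAAA, whose letters do not overlap. The Th window holds 1 match, the response element, which begins 45 bases before the start. Among all 32851 windows of the same length, 1.79% hold that motif, 16.8% the RUNX core and 13.6% the TATA box. The windows of Slc17a8 and Fam19a4 hold none of the 3 motifs, nor do those of Slc17a6 and Slc17a7. Zfp521, which also varied with Th, Slc17a8 and Fam19a4, had no window to search.

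Th encodes tyrosine hydroxylase, the rate-limiting enzyme of catecholamine synthesis. Its level in CPM (counts scaled to each library's total) was 12.2 in Q84 male 1 and 22.0, 12.6, 17.4 and 19.1 in Q84 females 1 to 4, against 32.9, 65.7 and 74.4 in WT males 1 to 3 and 14.8 and 72.6 in WT females 1 and 3. Of the 2 libraries set aside, that labelled Q84 female 5 held 66.4 CPM and that labelled WT female 2 held 36.1 CPM. Of the 5 WT libraries, 4 lay above every one of the 5 Q84 libraries, and WT female 1 lay among them, so the groups overlapped. Means over these 10 libraries were 16.7 ± 4.21 CPM in Q84 and 52.1 ± 26.7 CPM in WT (SD, n = 5 each). The log2 fold change of Q84 over WT was −1.62 (SE 0.51), which did not pass the edgeR quasi-likelihood test (adjusted p = 0.113), and over the 12 libraries it was −0.99 (SE 0.61, edgeR adjusted p = 0.512).

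Slc17a8 encodes VGLUT3. It measured 6.90 CPM in Q84 male 1 and 9.38, 8.08, 8.29 and 7.58 CPM in Q84 females 1 to 4, against 19.3, 25.2 and 27.3 CPM in WT males 1 to 3 and 8.82 and 33.7 CPM in WT females 1 and 3. Of the 2 libraries set aside, that labelled Q84 female 5 held 25.0 CPM and that labelled WT female 2 held 17.6 CPM. The 5 Q84 libraries formed a narrow band, into which only WT female 1 of the 5 WT libraries fell. Over the 10 libraries Slc17a8 fell in Q84, with means of 8.05 ± 0.919 CPM in Q84 and 22.9 ± 9.39 CPM in WT (SD, n = 5 each) and a log2 fold change of −1.50 (SE 0.33, edgeR adjusted p = 0.0259). It was the 1 gene of the 6 that passed this test, and the test called 923 of 18721 genes lower in Q84, or 4.93%, and 285 higher, or 1.52%, which makes 6.45% in either direction. Over the 12 libraries its log2 fold change was −1.05 (SE 0.44, edgeR adjusted p = 0.308), and none of the 6 genes passed, although Slc17a7 and Slc17a8 had an unadjusted p under 0.05 and DESeq2 called 1 of the 6, Slc17a7, where it called 2.41% of all genes lower. In that fit 1 of 18875 genes passed, or 0.00530%, while 2695 genes (14.3%) had an unadjusted p under 0.05, and DESeq2 called 620 genes.

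Fam19a4, named Tafa4 in newer annotations, encodes the secreted protein TAFA4, known in mice to act on pain thresholds. Its values were 45.0 CPM in Q84 male 1 and 58.9, 54.6, 66.8 and 45.4 CPM in Q84 females 1 to 4, against 86.5, 98.4 and 102 CPM in WT males 1 to 3 and 43.5 and 133 CPM in WT females 1 and 3. Of the 2 libraries set aside, that labelled Q84 female 5 held 103 CPM and that labelled WT female 2 held 46.7 CPM. The order resembled that of Th, with 4 WT libraries above all 5 Q84 libraries and WT female 1 below all of them. Means were 54.1 ± 9.27 CPM in Q84 and 92.7 ± 32.3 CPM in WT (SD, n = 5 each). The log2 fold change of −0.80 (SE 0.29) over 10 libraries did not pass (edgeR adjusted p = 0.156), nor did −0.42 (SE 0.34) over 12 (edgeR adjusted p = 0.636).

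**Figure D1:**
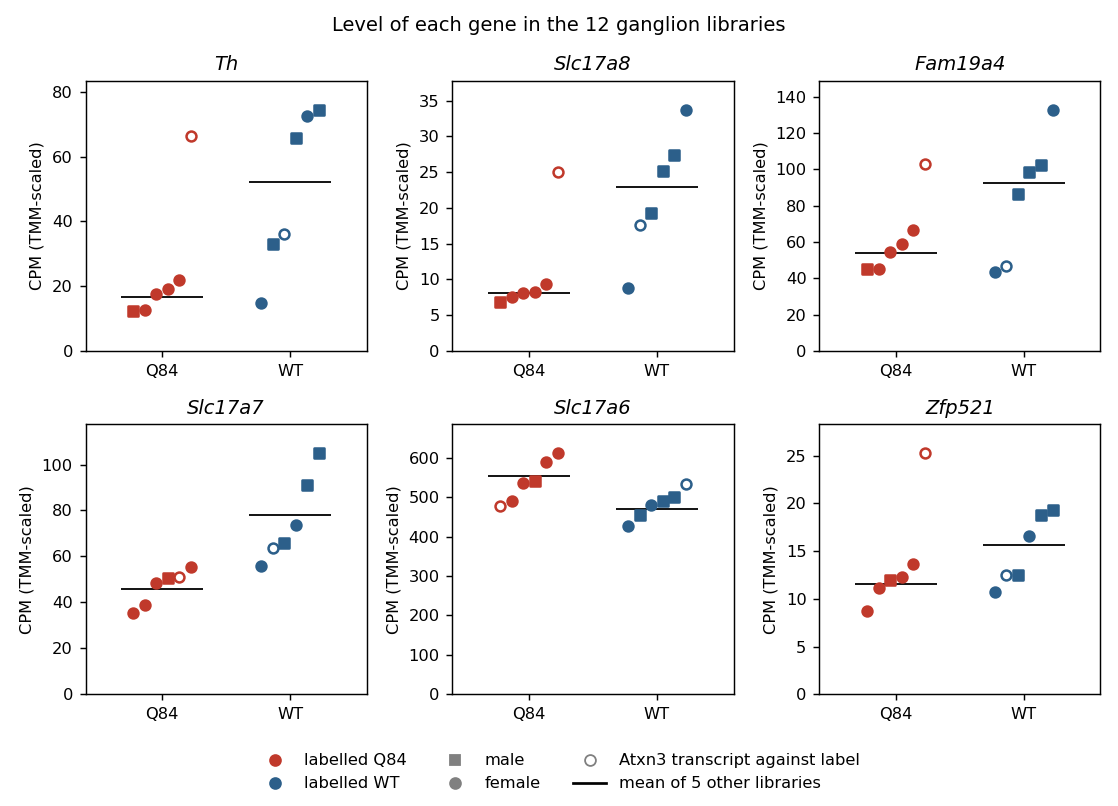
Level of each of the 6 genes in CPM, with a point for each library (squares male, circles female), Q84 left of WT, open symbols for the 2 libraries that go against their labels, and a line at the mean of the 5 others per genotype. For Th, Slc17a8 and Fam19a4 the libraries labelled Q84 female 5 (66.4, 25.0 and 103 CPM) and WT female 1 (14.8, 8.82 and 43.5 CPM) lie outside the range of the other filled symbols of their label. For Slc17a7 all 6 points labelled Q84 lie below all 6 labelled WT, the open symbols included.

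Whether these 3 genes passed changed with a single WT library. Without WT female 1, all 3 passed over the remaining 9 libraries, with log2 fold changes of −2.13 for Th (edgeR adjusted p = 0.00228), −1.91 for Slc17a8 (edgeR adjusted p = 2.14e-05) and −1.16 for Fam19a4 (edgeR adjusted p = 0.000325). That fit called 662 of 18477 genes lower. Without WT female 3 none of the 3 passed, at −0.96, −0.92 and −0.34 (edgeR adjusted p = 0.611, 0.240 and 0.707), where 617 of 18717 genes were called lower. Slc17a8 lost its call in 7 of the 10 fits that each left out 1 library, keeping it without WT female 1, WT male 1 or Q84 female 1. Its log2 fold change ran from −1.91 to −0.92 over them. It also lost it with limma-voom (limma adjusted p = 0.0820) and without a filter on low counts (edgeR adjusted p = 0.0604), whereas DESeq2 called Th, Slc17a8, Fam19a4 and Slc17a7 lower over the 10 libraries (DESeq2 adjusted p = 0.0164, 1.42e-05, 0.0223 and 0.00593), where it called 1355 of 18721 genes lower, or 7.24%. Over the 12 libraries, leaving out Q84 female 5 alone brought Slc17a8 (−1.42, edgeR adjusted p = 0.0197) and Slc17a7 (−0.61, edgeR adjusted p = 0.0373) past the threshold. That fit called 838 of 18763 genes lower, against 1 of 18875 with all 12 libraries.

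**Figure D2:**
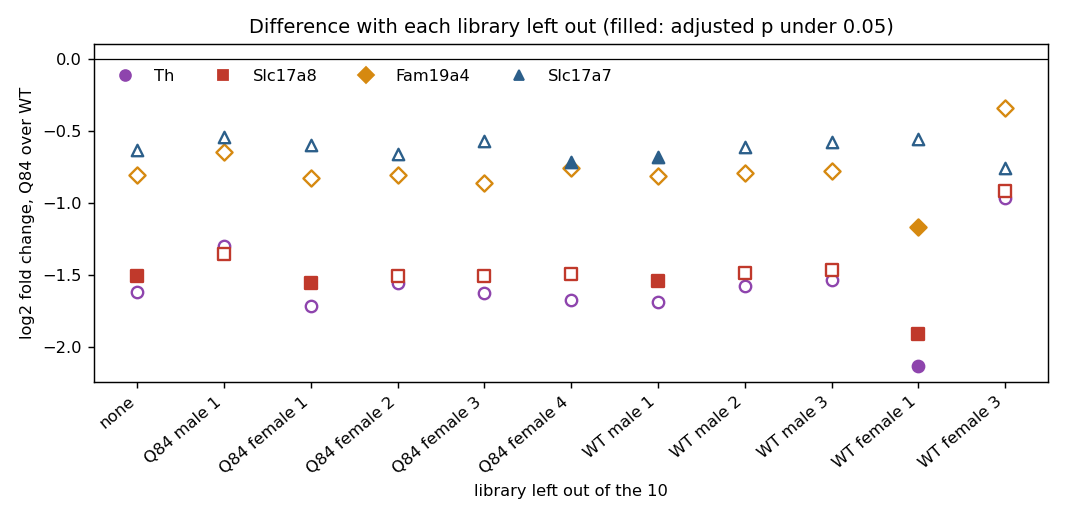
Log2 fold change of Q84 over WT for Th, Slc17a8, Fam19a4 and Slc17a7 in the 10-library fit (none) and in the fits that each leave out 1 library, with filled symbols where the edgeR adjusted p was under 0.05. The values of Th, Slc17a8 and Fam19a4 are farthest below 0 without WT female 1 (−2.13, −1.91 and −1.16) and nearest to it without WT female 3 (−0.96, −0.92 and −0.34).

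The spread within WT was wide for the same 3 genes. From its lowest to its highest WT library, over all 6, Th differed 5.02-fold, Slc17a8 3.82-fold and Fam19a4 3.05-fold, against 1.87-fold for Slc17a7, 1.80-fold for Zfp521 and 1.25-fold for Slc17a6. Among the 5 Q84 libraries the corresponding ranges were 1.80-fold for Th, 1.36-fold for Slc17a8 and 1.48-fold for Fam19a4. WT female 1 was the lowest WT library for 5 of the 6 genes, Slc17a7 being the exception. In the library labelled Q84 female 5, relative to the mean of the 5 WT libraries, Th was 1.28-fold, Slc17a8 1.09-fold, Fam19a4 1.11-fold, Zfp521 1.62-fold, Slc17a6 1.02-fold and Slc17a7 0.654-fold. Of the 6 genes, Slc17a7 alone was below all WT libraries there. In these bulk samples, fewer cells of a type and less RNA per cell cannot be told apart.

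Across all 12 libraries, the gene whose log2 CPM followed Th most closely among 13587 genes with a mean of 1 CPM or more was Slc17a8, with Pearson r = 0.970, followed by AW551984 (0.940) and Celf3 (0.929). Slc17a8 in turn was most like Th, Scin (0.964) and Slc51a (0.955), and Fam19a4 was most like Ceacam10 (0.950), Fam241a (0.929) and Maats1 (0.925). Within the 6 WT libraries alone, r was 0.973 between Th and Slc17a8 and 0.894 between Slc17a8 and Fam19a4. These correlations describe libraries that share a genotype or a sex, and they carry no test.

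Slc17a7 encodes VGLUT1. It measured 50.5 CPM in Q84 male 1 and 38.9, 48.3, 35.6 and 55.5 CPM in Q84 females 1 to 4, against 66.0, 90.9 and 105 CPM in WT males 1 to 3 and 73.5 and 56.1 CPM in WT females 1 and 3. Of the 2 libraries set aside, that labelled Q84 female 5 held 51.2 CPM and that labelled WT female 2 held 63.7 CPM. All 6 libraries labelled Q84 lay below all 6 labelled WT, the only one of the 6 genes with that separation, which 217 of 18875 genes (1.15%) showed in this direction. The separation follows the labels, and it includes the 2 libraries set aside, whose Atxn3 transcript goes against their labels. Means were 46.7 ± 7.73 CPM in Q84 and 75.8 ± 18.5 CPM in WT (SD, n = 6 each). The log2 fold change was −0.57 (SE 0.15) over 12 libraries and did not pass (edgeR adjusted p = 0.133). Over the 10 libraries it was −0.63 (SE 0.17, edgeR adjusted p = 0.0566), with means of 45.8 ± 8.27 CPM in Q84 and 78.3 ± 19.6 CPM in WT (SD, n = 5 each), and there 5.96% of genes had every Q84 library below every WT library. It passed over the 10 without WT male 1 (edgeR adjusted p = 0.0266) or without Q84 female 4 (edgeR adjusted p = 0.0277). Those fits called 1387 of 18623 and 773 of 18680 genes lower. The closest likenesses of Slc17a7 were Tmem229b (r = 0.965), Tmem163 (0.961) and Kcng4 (0.958), again over 12 libraries and without a test.

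Slc17a6 encodes VGLUT2 and was the most abundant of the 6. It measured 542 CPM in Q84 male 1 and 611, 536, 590 and 491 CPM in Q84 females 1 to 4, against 454, 499 and 491 CPM in WT males 1 to 3 and 427 and 480 CPM in WT females 1 and 3. Of the 2 libraries set aside, that labelled Q84 female 5 held 478 CPM and that labelled WT female 2 held 534 CPM. Of the 5 Q84 libraries, 4 lay above all 5 WT libraries, and Q84 female 4 lay within the WT range. Means were 554 ± 47.4 CPM in Q84 and 470.0 ± 29.7 CPM in WT (SD, n = 5 each). The difference did not pass, with log2 fold changes of 0.25 (SE 0.08, edgeR adjusted p = 0.110) over 10 libraries and 0.17 (SE 0.08, edgeR adjusted p = 0.372) over 12. When libraries were scaled to genes that all neurons use, which moved the median of all genes from 0.01 to 0.15, Slc17a6 passed over the 10 libraries at 0.39 (edgeR adjusted p = 0.0337), as did 2.88% of all genes in this direction. Its closest likenesses were Copb1 (r = 0.924), Cntnap5a (0.897) and Mllt11 (0.897), and its correlation with Slc17a7 over the 12 libraries was −0.647.

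**Figure D3:**
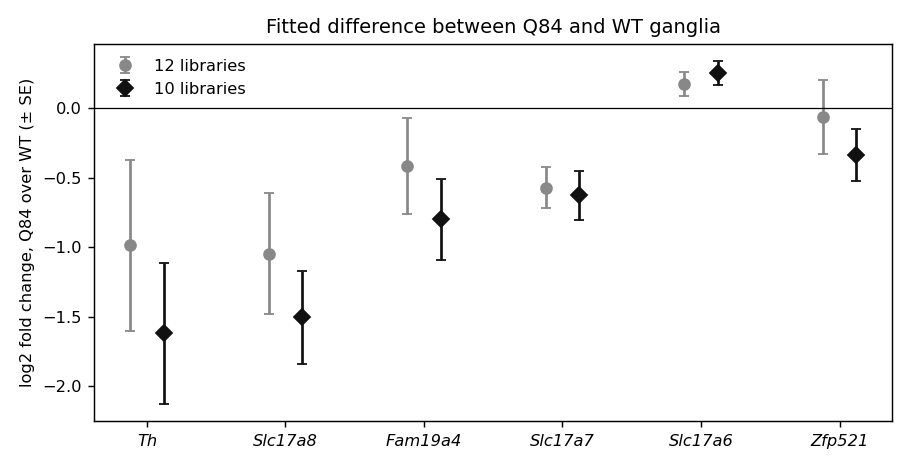
Fitted log2 fold change of Q84 over WT with its SE for each of the 6 genes, in circles for all 12 libraries and in diamonds for the 10 without the libraries that go against their labels. With this TMM scaling Slc17a6 is the only gene above 0, and Slc17a8 at −1.50 over 10 libraries is the only value that passed the test.

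Zfp521 measured 11.997 CPM in Q84 male 1 and 8.74, 12.3, 11.2 and 13.7 CPM in Q84 females 1 to 4, against 12.6, 18.8 and 19.3 CPM in WT males 1 to 3 and 10.7 and 16.6 CPM in WT females 1 and 3. Of the 2 libraries set aside, that labelled Q84 female 5 held 25.2 CPM, the highest of all 12, and that labelled WT female 2 held 12.5 CPM. The groups overlapped, and neither fit passed: −0.34 (SE 0.19, edgeR adjusted p = 0.349) over 10 libraries and −0.06 (SE 0.27, edgeR adjusted p = 0.947) over 12, where its sign turned (0.081) when libraries were scaled to genes that all neurons use. Its closest likenesses were Tmem132c (r = 0.944), Aldh5a1 (0.927) and Spty2d1 (0.922). Its regulatory partners Ebf1, Ebf2 and Ebf3 and its relative Zfp423 gave 0 of 4 calls in either fit. Of these, Ebf1 averaged 75.8 ± 6.24 CPM in Q84 and 102.6 ± 17.1 CPM in WT (SD, n = 5 each, log2 fold change −0.35, edgeR adjusted p = 0.0883), and Ebf3 averaged 50.1 ± 3.61 CPM in Q84 and 65.4 ± 11.8 CPM in WT (−0.33, edgeR adjusted p = 0.160). Over the 10 libraries Ebf1 was lower in every Q84 library than in every WT library, as were 5.96% of all genes tested. The 4 genes summed to 126 to 146 CPM in the 5 Q84 and 155 to 217 CPM in the 5 WT libraries. Over the 12 libraries these sums overlapped.

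Levels were compared between genes on the TPM scale. Over the 5 Q84 libraries the order was Slc17a6 at 194 ± 17.0 TPM, Fam19a4 at 36.6 ± 4.16, Slc17a7 at 23.1 ± 5.23, Th at 14.2 ± 3.52, Zfp521 at 3.81 ± 0.659 and Slc17a8 at 2.56 ± 0.251 TPM (SD, n = 5). Over the 5 WT libraries it was Slc17a6 at 172 ± 15.5 TPM, Fam19a4 at 65.4 ± 23.3, Th at 46.5 ± 24.6, Slc17a7 at 40.8 ± 11.5, Slc17a8 at 7.56 ± 3.19 and Zfp521 at 5.62 ± 1.58 TPM (SD, n = 5). Slc17a6 led without overlap in both groups. Neighbours whose ranges overlapped were Slc17a7 with Th and Zfp521 with Slc17a8 in Q84, and Fam19a4 with Th, Th with Slc17a7 and Slc17a8 with Zfp521 in WT.

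Of the vesicular glutamate transporter mRNA, VGLUT2 made up more in the Q84 libraries, and VGLUT1 and VGLUT3 less, at a similar sum. The summed TPM of Slc17a6, Slc17a7 and Slc17a8 was 219.6 ± 17.1 in Q84 and 220.07 ± 26.7 in WT (SD, n = 5 each). VGLUT2 held 88.3 ± 2.44% of it in Q84 and 78.3 ± 3.09% in WT, without overlap between the 5 and 5 libraries. VGLUT1 held 10.5 ± 2.47% in Q84 and 18.4 ± 3.45% in WT, where Q84 female 4 at 13.7% and WT female 3 at 13.4% crossed. VGLUT3 held 1.17 ± 0.0953% in Q84, with a range of 1.00 to 1.25%, and 3.38 ± 1.32% in WT, with a range of 1.47 to 5.13%. The 2 libraries set aside had VGLUT3 shares of 3.98% (labelled Q84 female 5) and 2.49% (labelled WT female 2). Over all 12 libraries the means were 87.4% in Q84 and 79.1% in WT for VGLUT2, 10.9% in Q84 and 17.7% in WT for VGLUT1, and 1.64% in Q84 and 3.23% in WT for VGLUT3, and the groups overlapped for all 3. A share falls when another transporter rises, so the shares are given without a test.

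**Figure D4:**
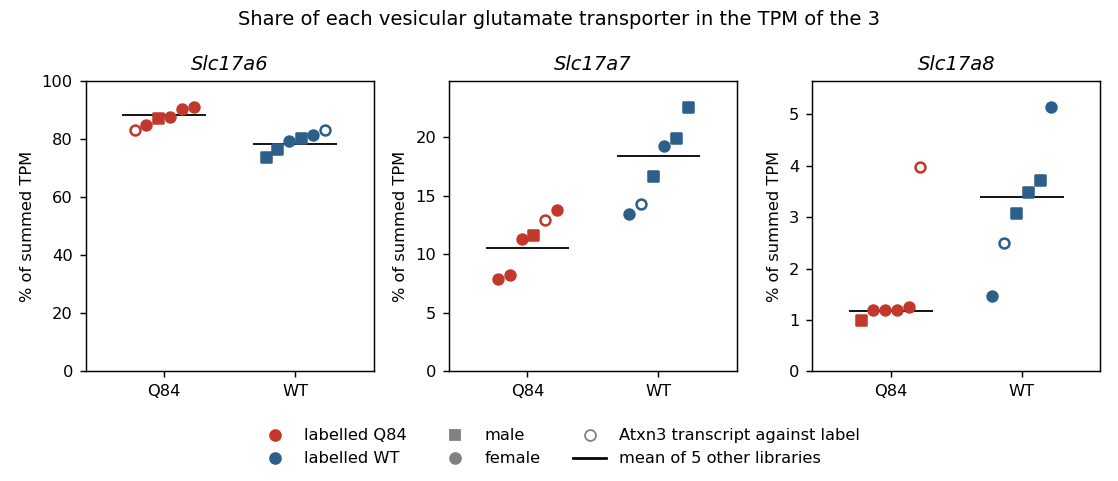
Share of Slc17a6, Slc17a7 and Slc17a8 in their summed TPM in each library, in percent, with Q84 libraries left of WT libraries, open symbols for the 2 libraries that go against their labels and a line at the mean of the 5 others. Slc17a6 takes 85.1 to 91.0% in the 5 Q84 libraries and 73.8 to 81.4% in the 5 WT libraries, with the library labelled Q84 female 5 at 83.1% and that labelled WT female 2 at 83.3%.

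Nearly all counts of 5 of the genes came from 1 transcript each. The main transcript held 97.4 to 99.5% of the counts of Th, 99.5 to 99.8% for Slc17a6, 97.5 to 99.7% for Slc17a7, 97.9 to 100% for Slc17a8 and 98.2 to 99.4% for Fam19a4 over the 12 libraries. Zfp521 was divided over 3 transcripts, of 5032 bases (31.5 to 66.8%), 6206 bases (18.9 to 35.4%) and 3457 bases (9.42 to 43.0%), the last annotated as a target of nonsense-mediated decay. This division is an estimate by likelihood between overlapping transcripts.

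A further 9 genes used as markers of C-fibre touch neurons were examined, some of which other sensory neurons share. Over the 10 libraries 4 of 9 fell in Q84, where 4.93% of all genes did, and the other 5 did not pass. All 9 fold changes were negative, with a median of −0.71 against 0.01 over all genes tested. Of the 10 sensory neuron genes of the tissue check, 9 were negative too, with a median of −0.44. Over the 12 libraries 0 of 9 passed, with a median of −0.33. Wnt2b, a secreted signalling protein, averaged 1.49 ± 0.279 CPM in Q84 and 11.6 ± 3.35 CPM in WT (SD, n = 5 each), with a log2 fold change of −2.97 (edgeR adjusted p = 3.38e-05). Its level in WT female 1 was 12.9 CPM, within the other WT values, whereas Th and Slc17a8 in that library were at Q84 levels. Gfra2, the co-receptor for the growth factor neurturin, averaged 13.5 ± 1.14 CPM in Q84 and 34.3 ± 9.05 CPM in WT (SD, n = 5 each, −1.27, edgeR adjusted p = 0.00107). P2ry1, a purinergic receptor, averaged 71.6 ± 9.85 CPM in Q84 and 149.6 ± 31.4 CPM in WT (SD, n = 5 each, −1.07, edgeR adjusted p = 0.00354). These 3 genes kept their call in all 10 fits that left out 1 library, and P2ry1 lost it with female libraries only (−0.93, edgeR adjusted p = 0.101). Bhlha9, a transcription factor gene, averaged 2.49 ± 0.239 CPM in Q84 and 6.15 ± 1.90 CPM in WT (−1.18, edgeR adjusted p = 0.00728) and lost its call without WT female 3 or without Q84 male 1. Leaving out WT female 1 moved the log2 fold changes of Gfra2, P2ry1 and Bhlha9 down, to −1.40, −1.30 and −1.44. That of Wnt2b moved up, to −2.92.

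**Figure D5:**
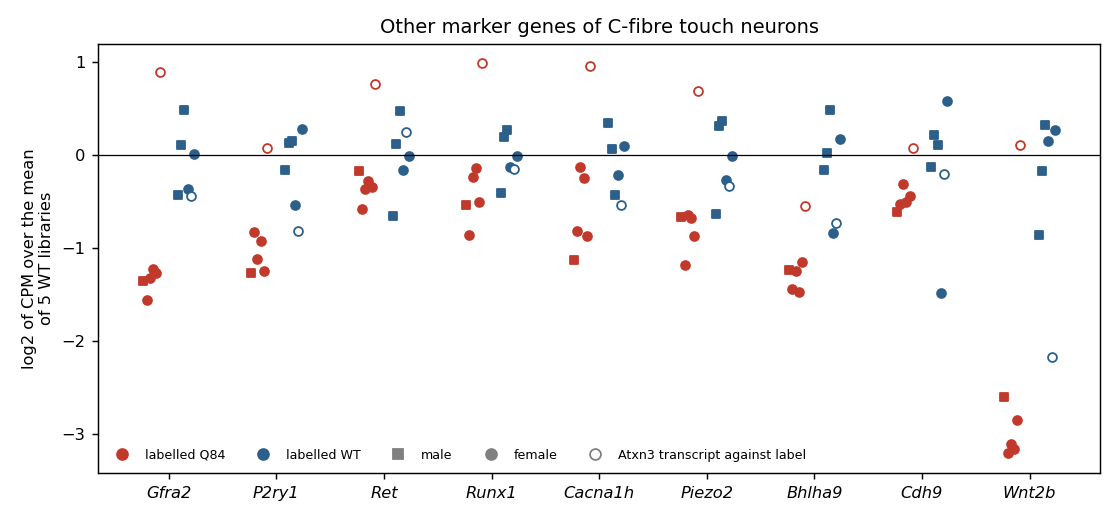
Log2 of the CPM of each of 9 C-fibre touch neuron markers over the mean of the 5 WT libraries, with a point for each library, Q84 left of WT and open symbols for the 2 libraries that go against their labels. Gfra2, P2ry1, Bhlha9, Wnt2b and Piezo2 are lower in all 5 Q84 libraries than in all 5 WT libraries, as are 5.96% of all genes tested. Of these, Piezo2 did not pass (at most 83.6 CPM in Q84, at least 84.5 CPM in WT, edgeR adjusted p = 0.0621). The open Q84 symbols of Gfra2, P2ry1, Bhlha9 and Wnt2b are at 63.6, 157, 4.21 and 12.5 CPM, and that of Piezo2 is at 211 CPM.

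Among relatives of Fam19a4, 3 of 4 fell over the 10 libraries, where 4.93% of all genes did, and 0 of 4 over the 12. Fam19a3 averaged 1.20 ± 0.249 CPM in Q84 and 4.45 ± 0.694 CPM in WT (−1.95, edgeR adjusted p = 0.000111). Fam19a2 averaged 54.6 ± 5.34 CPM in Q84 and 99.1 ± 18.2 CPM in WT (−0.79, edgeR adjusted p = 0.00363), and Fam19a1 averaged 41.9 ± 3.73 CPM in Q84 and 54.0 ± 3.15 CPM in WT (−0.41, edgeR adjusted p = 0.0136, SD, n = 5 each throughout). The Fam19a1 call was lost without WT female 3 or without Q84 male 1, with neuronal library sizes (edgeR adjusted p = 0.178), with the replicate block (edgeR adjusted p = 0.0668) and with female libraries only (edgeR adjusted p = 0.0877). Fam19a5 measured 10.2 ± 1.45 CPM in Q84 and 9.92 ± 0.699 CPM in WT and did not pass. Of the other SLC17 carriers 2 of 6 could be tested and 0 passed. These were Slc17a5, the lysosomal sialic acid carrier, at 51.7 ± 4.49 CPM in Q84 and 52.4 ± 4.12 CPM in WT, and Slc17a9, the vesicular nucleotide carrier, at 0.260 CPM or less in every library.

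Few genes of the pathways around glutamate transport and tyrosine hydroxylase passed. Of 11 genes that make or take up glutamate and glutamine 0 passed in either fit; those of smallest p were Slc38a2, a glutamine carrier, at 286 ± 26.4 CPM in Q84 and 387 ± 82.1 CPM in WT, and Glul, glutamine synthetase, at 401 ± 68.7 CPM in Q84 and 497 ± 69.3 CPM in WT. Of 14 genes of the catecholamine pathway 11 were tested, and 1 passed over the 10 libraries: Slc18a1, a vesicular monoamine carrier, rose to 6.58 ± 0.837 CPM in Q84, against 4.32 ± 0.728 CPM in WT (0.67, edgeR adjusted p = 0.0273), and lost its call without WT female 1, WT female 3, Q84 male 1, Q84 female 2 or Q84 female 4, and with length-scaled TPM (edgeR adjusted p = 0.149). Ddc, which acts on the product of tyrosine hydroxylase, was at 2.67 ± 0.480 CPM in Q84 and 2.63 ± 0.269 CPM in WT.

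Markers of other cells were read beside these results. Of sympathetic neurons, which also express Th, Dbh was at 0.0473 CPM or less in all 12 libraries, and Phox2a and Hand1 were listed at 0. The list of 8 summed to 6.99 to 11.3 CPM in the 5 Q84 and 6.21 to 8.72 CPM in the 5 WT libraries, mostly from Slc18a2. Of its 3 tested genes 0 passed (smallest p for Slc6a2, at 0.218 ± 0.0917 CPM in Q84 and 0.340 ± 0.144 CPM in WT, and Slc18a2, at 8.71 ± 1.72 CPM in Q84 and 7.26 ± 0.938 CPM in WT). None of 8 genes that all neurons use passed (median log2 fold change −0.13 over 10 libraries), with Stmn2 at 1681 ± 79.6 CPM in Q84 and 1890.0 ± 89.2 CPM in WT and Rbfox3 at 6.90 ± 2.19 CPM in Q84 and 9.58 ± 2.17 CPM in WT. Their sums were 7377 to 7977 CPM in the 5 Q84 and 7747 to 9449 CPM in the 5 WT libraries. All 10 sensory neuron genes of the tissue check passed the filter on low counts, and of these Pou4f1 (32.9 ± 7.69 CPM in Q84, 54.1 ± 4.52 CPM in WT) and Ntrk2 (116 ± 5.54 CPM in Q84, 151 ± 9.06 CPM in WT) fell over the 10 libraries. Both calls were lost without WT female 3, and that of Pou4f1 also without Q84 male 1. Pou4f1 did not pass with female libraries only (edgeR adjusted p = 0.120), nor Ntrk2 with neuronal library sizes (edgeR adjusted p = 0.143) or the replicate block (edgeR adjusted p = 0.0546). Summed, these 10 genes ran from 1721 to 1892 CPM in the 5 Q84 and 1692 to 2640 CPM in the 5 WT libraries.

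Of 6 genes of large-diameter neurons, which hold most Slc17a7, only Fam19a1 passed over the 10 libraries and 0 over the 12. Their sum ran from 747 to 859 CPM in the 5 Q84 and 684 to 1168 CPM in the 5 WT libraries. Of 9 spinal cord genes 0 passed over the 12 libraries. Over the 10, Gad1 rose (2.42 ± 0.364 CPM in Q84, 1.39 ± 0.149 CPM in WT) and Aqp4 fell (16.4 ± 2.66 CPM in Q84, 28.1 ± 4.17 CPM in WT). The Gad1 call was kept only without WT male 1, WT male 3 or Q84 female 4 in the fits that left out 1 library, and the Aqp4 call was lost without WT female 3. Gad1 also lost its call with length-scaled TPM (edgeR adjusted p = 0.0705) and the replicate block (edgeR adjusted p = 0.0610), and Aqp4 with neuronal library sizes (edgeR adjusted p = 0.0560). Over the 10 libraries 6 of the 8 tested spinal cord genes had positive fold changes, with a median of 1.13. The list summed to 15.9 to 25.4 CPM in the 5 Q84 and 26.4 to 36.4 CPM in the 5 WT libraries, most of it Aqp4. Mog at 2.08 CPM, Slc6a5 at 1.22 CPM, Olig1 at 1.17 CPM and Slc32a1 at 0.387 CPM were each highest in Q84 female 4. None of 6 glial genes passed, the smallest p being for Sox10 (3.54 ± 0.248 CPM in Q84, 2.56 ± 0.744 CPM in WT) and Mbp (623 ± 229.9 CPM in Q84, 582 ± 196 CPM in WT). The glial sum was 1373 to 2354 CPM in the 5 Q84 and 1352 to 2434 CPM in the 5 WT libraries. None of 5 blood genes passed (median log2 fold change 1.34 over 10 libraries), with a sum of 462 to 1826 CPM in the 5 Q84 and 173 to 1033 CPM in the 5 WT libraries. The smallest p among them was for Hba-a1 (189 ± 92.6 CPM in Q84, 97.5 ± 46.6 CPM in WT) and Hba-a2 (235 ± 110.6 CPM in Q84, 133.6 ± 62.0 CPM in WT). Of 4 Hox genes of body position, picked after their values were seen, 0 passed over the 10 libraries. Hoxc10 averaged 2.58 ± 0.547 CPM in Q84 and 1.78 ± 0.855 CPM in WT (0.99, edgeR adjusted p = 0.0941). Hoxa10 averaged 36.1 ± 5.59 CPM in Q84 and 26.8 ± 7.16 CPM in WT (0.57, edgeR adjusted p = 0.113), and Hoxa9 averaged 53.7 ± 2.79 CPM in Q84 and 48.5 ± 9.76 CPM in WT (0.28, edgeR adjusted p = 0.220). Hoxd10 ran from 0.374 to 1.00 CPM in the 5 Q84 and from 0.168 to 8.05 CPM in the 5 WT libraries (−0.12, edgeR adjusted p = 0.978). WT female 3 was the lowest WT library for all 4. The part of these markers in the results on Th, Slc17a8, Fam19a4 and Slc17a7 was not tested.

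Sex was examined over the 12 libraries, with genotype in the model. None of the 6 genes passed, where 12 of 18875 genes did (0.0636%). Slc17a7 had a log2 fold change of males over females of 0.33 (SE 0.16, edgeR adjusted p = 1). The others lay between −0.07 and 0.15. With the female libraries alone, Q84 over WT over the 10-library set was −1.34 for Slc17a8 (SE 0.52, edgeR adjusted p = 0.267), −1.29 for Th (edgeR adjusted p = 0.413) and −0.52 for Slc17a7 (edgeR adjusted p = 0.192), from 4 Q84 and 2 WT libraries.

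The 5 nearest tested genes on each side of each of the 6 were read by their order on the chromosome, and 0 of these passed over the 12 libraries. Over the 10, Nell1, on the same chromosome as Slc17a6 and separated from it by 1 tested gene, rose to 20.4 ± 2.65 CPM in Q84, against 4.51 ± 0.210 CPM in WT (2.21, edgeR adjusted p = 7.29e-07), while over the 12 libraries it did not pass (1.35, edgeR adjusted p = 0.256). Also near Slc17a6, Prmt3 fell (−0.29) and kept its call only without WT male 1 or Q84 female 1 in the fits that left out 1 library. Prmt3 also lost it with neuronal library sizes, length-scaled TPM, the replicate block and female libraries only (edgeR adjusted p = 0.378, 0.0588, 0.163 and 0.149). Near Slc17a8, Ano4 (−0.43, lost with neuronal library sizes, edgeR adjusted p = 0.104) and Anks1b (−0.59) fell. Fam19a1, separated from Fam19a4 by 1 tested gene, and Ttc39c (−0.61), near Zfp521, fell too. The Fam19a1 call is the same one given above among relatives of Fam19a4. Of 10 neighbours each, Slc17a6 had 1 called higher and 1 lower. Slc17a8 had 2 called lower, and Fam19a4 and Zfp521 had 1 each. In that fit 6.45% of all genes were called in either direction. No neighbour of Th or Slc17a7 passed; the nearest were Gm49394 and Ascl2 beside Th, both averaging under 0.1 CPM in either genotype, and Pih1d1 (25.9 ± 2.28 CPM in Q84, 28.7 ± 2.66 CPM in WT) and Ccdc155 (0.311 ± 0.129 CPM in Q84, 0.215 ± 0.0783 CPM in WT) beside Slc17a7.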

How the data were processed

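Poly(A) RNA of mouse dorsal root ganglia was sequenced in 12 libraries, grouped by the genotype and sex in their labels. Per the file headers, each deposited table gives every transcript an effective length, an estimated count and a TPM value in kallisto's columns; kallisto 0.46.2, STAR 2.7.10b and GRCm39 are named per the submitters' processing notes. The authors' estimated counts need not be whole and carry no scaling between libraries, whereas the deposited TPM values allow for length and library total. Effective lengths, deposited by the authors, served only the length-scaled alternative. The use of strand in counting is not stated in the sources.

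Of 116313 transcripts, 98.3% matched a gene in GENCODE M21, an annotation of GRCm38, used for names and gene order only; the rest held 0.751 to 0.804% of counts and were left out. Counts were summed per gene and rounded. After filterByExpr on the 4 groups and TMM scaling, all genes entered edgeR's quasi-likelihood test (edgeR 4.0.16, R 4.3.3) with sex and genotype as terms, Benjamini-Hochberg adjustment and a threshold of 0.05. Q84 against WT was fitted over all 12 libraries and over the 10 without those labelled Q84 female 5 and WT female 2. Levels are CPM scaled with TMM, and likeness was computed on log2 of CPM plus 0.1. On simulated data the test found 36% of 1.5-fold and 68% of 2-fold changes over 12 libraries, and 52% and 80% over 10.

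The 6 genes, the 13 other lists and the 10-library design were chosen with earlier results of these data known. Named are all 6 genes, every list gene or neighbour that passed, otherwise for a list the 2 of smallest p and for neighbours the nearest on each side, and the 3 genes most like each of the 6; other genes were named after their values were seen. Alternatives were DESeq2 1.42.0, limma-voom (limma 3.58.1), RLE size factors, library sizes from neuronal genes, no filter, length-scaled TPM, a replicate block, female libraries only and each library left out. Replicates of 1 group differed by more than sampling noise (chi-square per degree of freedom 28.9 or more).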

Additional observations from a re-analysis of the deposited data

Results flagged for a closer look

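The library labelled Q84 female 5 stood apart from the others of its label. Of 30 groups of libraries checked for a lone extreme value, over 18 genes, 12 were flagged, all for this library. Chance flags about 1 in 20 groups, but several of these genes vary together, so the flags are not independent. Among the Q84 females its Th level of 66.4 CPM and its Slc17a8 level of 25.0 CPM lay far above the rest, as they also did among all 6 libraries labelled Q84, and its Zfp521 level of 25.2 CPM did among all 6. The same held among the Q84 females for Gfra2 (63.6 CPM), P2ry1 (157 CPM), Bhlha9 (4.21 CPM), Wnt2b (12.5 CPM), Fam19a3 (3.80 CPM), Pou4f1 (95.9 CPM) and Ntrk2 (167 CPM). These list genes were called lower in the fit without this library, so their flags add no separate support. Slc17a7, at 51.2 CPM in this library, Slc17a6 and Fam19a4 were not flagged. This is the library whose 1000-base Atxn3 transcript, at 0.0612 TPM, goes against its label, and why it does was not tested.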

How the results depend on the processing

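Over the 12 libraries, 0 of the 6 genes passed lower in Q84; DESeq2 and the replicate block called 1 each (Slc17a7), and leaving out 1 library gave 0 to 2. The count over all genes was 1, against 0 with neuronal library sizes or females only, 15 without a filter, 620 with DESeq2, 639 with the block and 0 to 1082 with 1 library left out. Over the 10 libraries, neuronal library sizes called 1 gene higher (Slc17a6). The 1 lower call became 0 without a filter, with limma-voom or with females only, 4 with DESeq2 (Th, Slc17a7, Slc17a8 and Fam19a4) and 0 to 3 with 1 library left out. All genes called were 1208, against 1933 with DESeq2, 701 with the block and 681 to 1978 with 1 library left out. For sex 12 genes became 21 with DESeq2, 7 with the block and 6 to 23.

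The fold change of Zfp521 over 12 libraries reversed to 0.081 with neuronal library sizes and 0.10 with females only, and ran from −0.30 to 0.10 with 1 library left out; that of Fam19a4 ran from −0.66 to 0.029. For sex, Th reversed to 0.23 with limma-voom and 0.39 with the block (−0.38 to 0.49 with 1 library left out) and Slc17a8 to 0.17 and 0.26 (−0.35 to 0.27). Slc17a6 reversed to −0.054 with neuronal library sizes, −1.1e-05 with length-scaled TPM and −0.0097 with the block (−0.044 to 0.047), and Fam19a4 ran from −0.16 to 0.49. The cause was not tested. Differences in transporter shares kept their direction under shares of counts and each library left out.

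Of same-numbered library pairs, 5 of 9 correlated above 0.1 (−0.189 to 0.295), while different-numbered pairs ran from −0.355 to 0.235. These overlapping ranges cannot decide whether replicate numbers pair the libraries. With the block over 10 libraries Slc17a7 passed (−0.73, edgeR adjusted p = 0.0467) and Slc17a8 did not (−1.21, edgeR adjusted p = 0.0973). Only 1 Q84 library is male, so genotype by sex was not tested.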
